A study of Dugesia japonica with 15 samples.

Results

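The change in gene expression after amputation was followed in freshwater planarians, *Dugesia japonica*, that had been treated with RNA interference (RNAi) against DjTcf4. RNAi is the feeding or injection of double-stranded RNA that lowers the level of a matching transcript. Trunk fragments at 5 days post amputation (5 dpa) were set against intact animals given the same RNAi. The comparison took 6 of the 15 mRNA libraries in the series: DjTcf4 RNAi 5 dpa replicates 1, 3 and 4 and DjTcf4 RNAi intact replicates 1, 3 and 4. DjTcf4 RNAi intact replicate 2 was left out because it had been found to stand with the 5 dpa libraries, and it was added back as a check. That choice rests on measured values and removes a library that narrows the contrast, so the leading counts are given both ways. Control RNAi animals, 4 intact and 4 at 5 dpa, entered the fit and give the matched change. All animals carried some RNAi treatment, and libraries were made from pooled animals, per the labels' protocols. The labels do not say whether replicates were separate pools, and the p-values therefore reflect only how far these libraries differ, which may be partly technical. A trunk is also a part of an animal, so the change after amputation and the difference between a trunk and a whole body cannot be told apart.

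Planarians regrow lost body parts from a pool of dividing stem cells, called neoblasts, whose descendants differentiate into the missing tissues. Wounded ends first form a blastema, an outgrowth in which new tissue appears, while the old tissue is remodelled. Proteins of the TCF family bind DNA and, in many animals, act with β-catenin at the end of the Wnt pathway, which patterns the head-to-tail axis of planarians. Genes in the deposited table are given by model number without names, so no pathway or cell type was assigned to them, and the knockdown of DjTcf4 itself was not checked. For the same reason the labelled tissues were not checked against markers. Genes are printed by ID for the pair of largest rises and the pair of largest falls. In bulk RNA, fewer cells of a type and less RNA per cell cannot be told apart.

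Total counts lay between 9148426 and 12224216 in the 6 libraries, and between 20863 and 22878 genes had a count. Over 11453 genes with a mean of at least 5 CPM (counts scaled to a common library size), the log2 levels correlated at 0.977 or more among the 3 intact libraries and at 0.971 or more among the 3 libraries at 5 dpa. Between the stages the correlations ran from 0.886 to 0.962. DjTcf4 RNAi intact replicate 2 correlated at 0.921 to 0.956 with the 5 dpa libraries and at 0.859 to 0.909 with the other intact libraries of its own group. No pair of libraries within either DjTcf4 RNAi group agreed within sampling noise. The chi-square per degree of freedom ran from 5.14 to 14.1 for pairs among the 6 libraries. For pairs with DjTcf4 RNAi intact replicate 2 it ran from 44.5 to 66.8.

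Genes moved in both directions after amputation, and the large changes were mostly falls. Of 16922 genes tested with edgeR's quasi-likelihood test, 6196 (36.6%) had a Benjamini-Hochberg adjusted p under 0.05. The called genes were 2930 that rose (17.3%) and 3266 that fell (19.3%). This balance depended on the scaling: with library size alone in place of TMM, 2297 rose and 3688 fell. At a change of at least 2-fold, the rises numbered 272 (1.61%) and the falls 1637 (9.67%). At a change of at least 4-fold there were 37 rises and 391 falls. The median log2 fold change was 0.57 among genes that rose, with the central 80% between 0.36 and 0.97, and -1.001 among genes that fell, with the central 80% between -2.11 and -0.46. The median over all genes tested was -0.016. The 3 libraries at 5 dpa lay wholly above the 3 intact libraries for 2849 of the called rises and wholly below them for 3056 of the called falls. Over all genes tested, the libraries did not overlap for 24.4% in the higher and 23.9% in the lower direction.

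With DjTcf4 RNAi intact replicate 2 added back, 2305 of 17094 genes were called (13.5%), 1164 higher (6.81%) and 1141 lower (6.67%). Of the 2930 rises, 1163 remained called in the same direction, and of the 3266 falls, 1132 did. Of the 272 rises of at least 2-fold, 187 remained called, and of the 1637 such falls, 639 did. At 4-fold, 29 of the 37 rises and 225 of the 391 falls remained called. Among these, falls still outnumbered rises, but by a smaller margin. The common biological coefficient of variation of the fit, the relative spread between replicates beyond counting error, was 0.154 without this library and 0.213 with it.

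**Figure D1:**
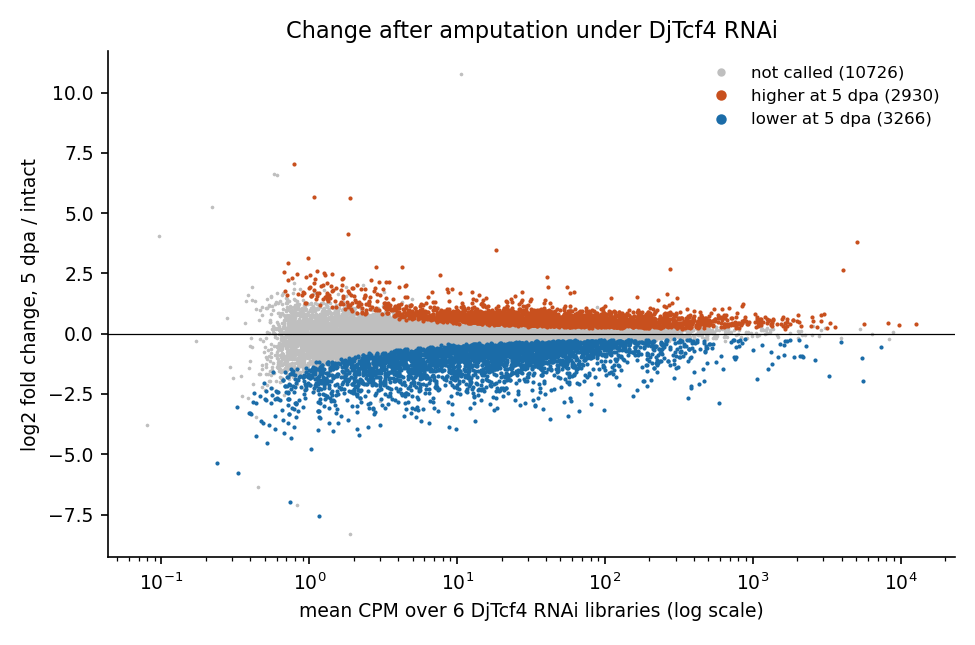
Log2 fold change of 5 dpa over intact animals under DjTcf4 RNAi (vertical axis) against the mean level in CPM over the 6 libraries compared (horizontal axis, log scale); each point is a gene. The 2930 genes that rose lie mostly within 1 log2 unit of 0, while the 3266 that fell spread further, and calls of small changes lie at higher levels.

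Among genes at 5 CPM or more that were called with and without replicate 2 and whose stages did not overlap, DJKW.10160 rose the most. It stood at 491, 645 and 868 CPM in the intact libraries and at 10931, 9245 and 8342 CPM at 5 dpa. All 3 fragments lay far above all 3 intact libraries, with no overlap between the stages. Its log2 fold change was 3.82 (SE 0.173, edgeR adjusted p = 8.6e-10), from 668 ± 189 to 9506 ± 1314 CPM (SD, n = 3 each). In DjTcf4 RNAi intact replicate 2 it stood at 956 CPM, close to the intact libraries. Control animals showed the same rise, from 693 ± 59.5 to 14125 ± 1316 CPM (SD, n = 4 each), for a control log2 fold change of 4.31. The control fragments, at 12910 to 15896 CPM, all lay above the 3 DjTcf4 RNAi fragments, but the rises did not differ past the threshold (interaction log2 difference -0.49, SE 0.205, edgeR adjusted p = 1). Fractional counts in every one of the 15 libraries leave its level uncertain, since reads may have been shared out among near-identical sequences.

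DJKW.25855 was the next largest rise by the same rule. It stood at 2.76, 1.55 and 4.60 CPM in intact animals and at 37.6, 42.6 and 21.1 CPM at 5 dpa. The lowest fragment library was still above every intact library. The log2 fold change was 3.45 (SE 0.337, edgeR adjusted p = 4.73e-06), against 4.36 (SE 0.317) in control animals. This gene also had fractional counts in every library.

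DJKW.19945 fell the furthest by that rule, followed by DJKW.4709. It stood at 12.998, 26.2 and 15.8 CPM in the intact libraries and at 1.33, 1.16 and 1.03 CPM at 5 dpa. The log2 fold change came to -3.97 (SE 0.477, edgeR adjusted p = 4.05e-05). All 3 fragments were alike and near the lower end of what was measured, while the intact libraries varied. Control animals showed a fall of like size, with a log2 fold change of -4.22 (SE 0.411). In DjTcf4 RNAi intact replicate 2 this gene stood at 0.799 CPM, below every fragment, and with that library added back the log2 fold change was -3.56 (SE 0.808, edgeR adjusted p = 0.0103).

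DJKW.4709 stood at 23.2, 12.4 and 13.8 CPM in the intact libraries and at 1.77, 0.847 and 0.687 CPM at 5 dpa. Its log2 fold change was -3.89 (SE 0.360, edgeR adjusted p = 7.6e-07). Here DjTcf4 RNAi intact replicate 2, at 23.1 CPM, lay with the intact libraries. Fractional counts in 8 of the 15 libraries leave the level of DJKW.4709 less certain. In control animals the gene went from 14.3 ± 0.747 to 3.89 ± 1.60 CPM (SD, n = 4 each), for a control log2 fold change of -1.89 (SE 0.268). The control fragments, at 2.40 to 6.16 CPM, all lay above the DjTcf4 RNAi fragments. The difference between the changes, -1.999 on the log2 scale (SE 0.458), did not pass the threshold over all genes (edgeR adjusted p = 0.46).

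**Figure D2:**
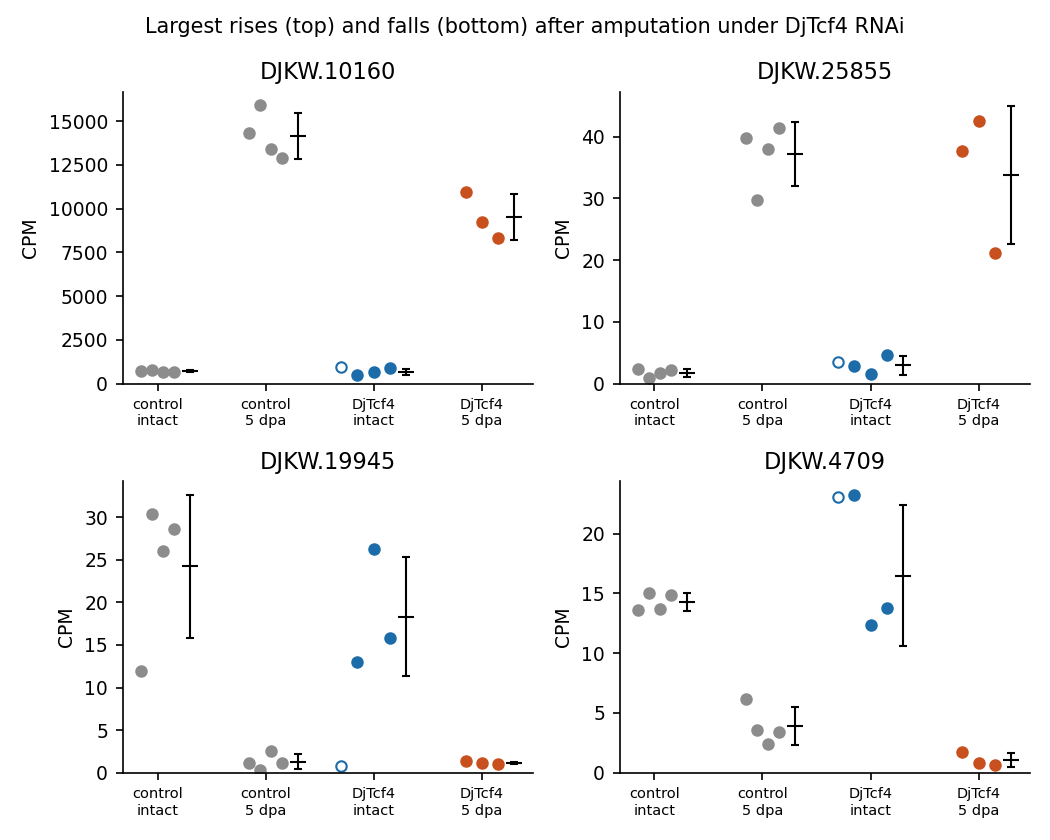
Level in CPM (vertical axes from 0) of the pair of largest rises and the pair of largest falls, chosen by the rule above, in each library; black marks show the mean ± SD, and the open circle is DjTcf4 RNAi intact replicate 2, which is not in the mean. That library lies at 0.799 CPM for DJKW.19945, with the fragments, and at 23.1 CPM for DJKW.4709, with the intact libraries.

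The genes ranked 3 to 10 by size each way gave the same picture. The 8 rises had log2 fold changes from 1.85 to 2.70, and the 8 falls from -3.71 to -3.22. All 16 were also called in control animals in the same direction, with log2 fold changes from 1.24 to 2.95 and from -5.19 to -1.74. DjTcf4 RNAi intact replicate 2 did not reach the fragment libraries for any of the 8 rises, and it lay at or below the highest fragment for 4 of the 8 falls. The rule favours genes where that library lay away from the fragments, since it keeps only genes still called with it added back. Of genes that met the level and overlap conditions, 1592 rises and 1430 falls lost their call with it.

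Changes also reached the most abundant transcripts. Among the 20 genes with the highest mean level over the 6 libraries, 9 rose and 5 fell. Of all genes tested 36.6% were called, and in the highest of 4 bins by level 34.8% rose and 19.995% fell. The mean takes in the fragments, so a gene that rose strongly can enter the 20 through its fragment values. DJKW.10160, described above, was 1 of the 9 rises, and in intact animals lay below the gene ranked 20 (2490 to 3071 CPM). Another of the rises was chosen after its values were seen. It stood at 1085, 1021 and 1225 CPM in intact animals, also below that gene, and at 8278, 7082 and 5761 CPM in fragments. It had whole-number counts in all 15 libraries. Its log2 fold change was 2.65 (SE 0.132, edgeR adjusted p = 3.35e-10), against 2.95 (SE 0.116) in control animals. The largest fall among the 20 went from 9619, 8421 and 8651 CPM to 2702, 2264 and 1983 CPM. Its log2 fold change was -1.95 (SE 0.119, edgeR adjusted p = 1.58e-09), and it had fractional counts. Among the 1000 most abundant genes, 450 rose and 184 fell, but 19 rose and 49 fell at least 2-fold.

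The genes that rose held 31.4% to 34.8% of all counts in the 3 intact libraries and 45.0% to 47.3% at 5 dpa. Those that fell held 24.5% to 27.6% and 13.3% to 15.3%. The genes were chosen from these libraries, so the shares describe the size of the change and test nothing. In DjTcf4 RNAi intact replicate 2, which had no part in the choice, the shares were 38.9% and 19.4%, between the stages for both sets. In control animals, whose libraries shaped only the spread and the scaling of the fit, rising genes held 31.1% to 34.6% in intact animals and 43.8% to 46.4% in fragments. The gain was concentrated: the top 10 rising genes gave 20.1% of the summed rise in CPM and the top 100 gave 45.8%. For falling genes the top 10 gave 23.3% of the summed loss and the top 100 gave 51.1%.

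The direction called more often changed with the level. The genes were divided into 4 bins of equal size by mean level. In the highest bin (median 87.3 CPM), 34.8% rose and 19.995% fell. In the next bin (median 22.3 CPM) the shares were 22.5% and 22.01%. In the bin below (median 6.65 CPM) 8.84% rose and 21.6% fell. In the lowest bin (median 1.53 CPM) 3.10% rose and 13.6% fell. The precision differed in the same order, with a median standard error of the log2 fold change of 0.116, 0.164, 0.251 and 0.468 from the highest bin to the lowest.

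Near-complete losses were few. A mean of at least 5 CPM in intact animals and under 1 CPM at 5 dpa was found for 19 genes, and 18 of them were called lower, as they were in control animals too. The reverse pattern was found for 1 gene, which was not called. In DjTcf4 RNAi intact replicate 2, 14 of the 19 genes also stood under 1 CPM and 0 reached 5 CPM.

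The table holds 28999 rows named DJKW and 9793 rows named Maker, gene models of a second kind whose origin the labels do not state. Of the DJKW rows 56.9% were tested, and of the Maker rows 4.24%. Among tested DJKW genes 17.5% rose and 19.4% fell. Among the 415 tested Maker genes, whose median level was 1.80 CPM against 13.1 CPM, 9.40% rose and 14.5% fell. Genes with a fractional count in at least 1 of the 6 libraries made up 17.7% of the genes tested and 15.0% of the calls.

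The change under DjTcf4 RNAi was then set beside that in control RNAi animals, which share no library with it. In control animals 3122 genes rose (18.4%) and 3843 fell (22.7%). Of the rises under DjTcf4 RNAi, 2288 were also called in control, 78.1% of the DjTcf4 RNAi list and 73.3% of the control list. Of the falls, 2765 were also called in control, 84.7% and 71.9% of the lists. The log2 fold changes correlated at 0.831 across genes (Spearman 0.833); genes are not independent replicates, and all come from 1 fit.

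Genes picked in control animals kept their direction in DjTcf4 RNAi animals. Of the 3122 control rises, 3089 had a log2 fold change above 0 under DjTcf4 RNAi, and of the 3843 control falls, 3802 were below 0. Over all genes tested, 8277 were above 0 and 8644 below. For genes that fell at least 4-fold in control, the median log2 fold change was -2.59 in control and -2.04 under DjTcf4 RNAi. Picked instead under DjTcf4 RNAi at the same size, genes had a median of -2.45 there and -2.81 in control. The median fall of these genes was larger in control by both choices, as it was for falls of at least 2-fold. For rises of at least 2-fold, the order followed the choice. Over all called falls, with no fold threshold, the order followed the choice too. Genes called lower in control had medians of -1.02 in control and -0.88 under DjTcf4 RNAi. Genes called lower under DjTcf4 RNAi had medians of -0.95 in control and -1.001 under DjTcf4 RNAi. None of these differences between medians was tested. Genes that rose at least 2-fold in control had medians of 1.33 in control and 1.09 under DjTcf4 RNAi, and those that rose at least 2-fold under DjTcf4 RNAi had medians of 0.86 and 1.30. No gene of either set of falls of at least 4-fold was called in the interaction. An unadjusted interaction p under 0.05 was found for 46 of the 617 chosen in control (7.46%) and 33 of the 391 chosen under DjTcf4 RNAi (8.44%), against 3.43% of all genes tested, but the values that chose both sets enter that test.

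**Figure D3:**
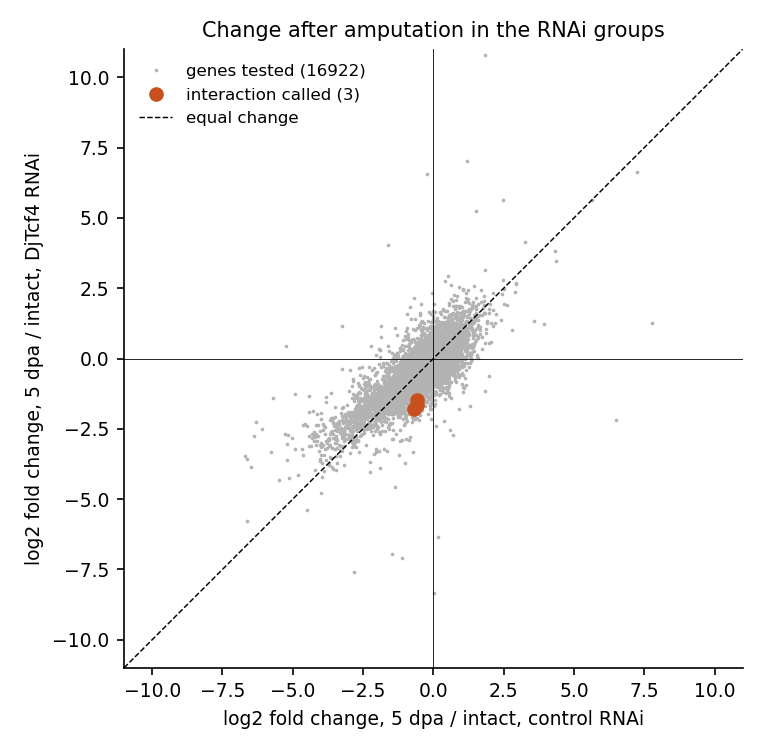
Log2 fold change of 5 dpa over intact animals under DjTcf4 RNAi (vertical axis) against that in control RNAi animals (horizontal axis); each point is a gene, and the dashed line marks equal change. The points follow the line with a correlation of 0.831, and the 3 genes called in the interaction lie below it.

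A further 642 rises and 501 falls were called under DjTcf4 RNAi and not in control in the same direction. Their median log2 fold changes were 0.54 and -0.75, against 0.24 and -0.30 in control, and 614 of the 642 and 473 of the 501 had the same sign in control. None of them was called in the interaction, so a different response was not shown for any. The unadjusted interaction p was under 0.05 for 95 and 86 of them, but they were chosen by their DjTcf4 RNAi values, which enter that test. One gene was called in opposite directions. It stood at 15.2, 15.2 and 17.2 CPM in intact DjTcf4 RNAi animals and at 12.4, 11.8 and 12.8 CPM in fragments (log2 fold change -0.38, edgeR adjusted p = 0.0353), and rose by 0.30 on the log2 scale in control (edgeR adjusted p = 0.0482). Its interaction did not pass (edgeR adjusted p = 0.98), and with replicate 2 added back its fall did not either (edgeR adjusted p = 0.0557).

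The test of the difference itself called 3 genes (0.0177%), all with a greater fall under DjTcf4 RNAi. Neither the count nor the single direction held in all alternatives: DESeq2 called 14 genes, 5 of them with a higher and 9 with a lower difference, and edgeR with no filter called 1 higher and 5 lower. In edgeR 581 genes had an unadjusted p under 0.05, fewer than the 846 expected with no difference. That expectation assumes uniform p-values, and genes are not independent, so the shortfall does not show that the responses were equal.

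The first of the 3 stood at 199, 184 and 171 CPM in intact DjTcf4 RNAi animals and at 49.3, 56.4 and 53.5 CPM in fragments. Control animals went from 307 ± 7.17 to 193 ± 20.5 CPM (SD, n = 4 each). These 3 intact DjTcf4 RNAi libraries thus lay near the level of control fragments, and the DjTcf4 RNAi fragments lay below all other libraries. DjTcf4 RNAi intact replicate 2, at 240 CPM, lay above every control fragment (highest 223 CPM). The log2 fold change after amputation was -1.81 (SE 0.102) under DjTcf4 RNAi and -0.71 (SE 0.0845) in control, a difference of -1.10 (SE 0.131, edgeR adjusted p = 0.00123).

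The second gene showed the same arrangement at a lower level. It stood at 135, 107 and 112 CPM in intact DjTcf4 RNAi animals and at 34.3, 42.4 and 37.6 CPM in fragments, against 173 ± 11.5 and 120 ± 15.2 CPM in control (SD, n = 4 each). DjTcf4 RNAi intact replicate 2, at 173 CPM, again lay above every control fragment (108 to 142 CPM). The difference between the changes was -1.08 (SE 0.157, edgeR adjusted p = 0.0126). The call ended without control intact replicate 2 (adjusted p = 0.054), DjTcf4 RNAi intact replicate 1 (0.0531), or DjTcf4 RNAi 5 dpa replicate 1 (0.0695) or 4 (0.0825).

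The last of the 3 genes was abundant, at 1897, 1906 and 1801 CPM in intact DjTcf4 RNAi animals and at 623, 798 and 615 CPM in fragments. Control animals went from 2178 ± 145 to 1486 ± 150 CPM (SD, n = 4 each). The difference between the changes was -0.89 (SE 0.140, edgeR adjusted p = 0.0246), and it had fractional counts in every library. This call ended when any of 9 single libraries was left out, listed in the closing paragraphs. With DjTcf4 RNAi intact replicate 2 added back, the calls of the second and the last gene ended (edgeR adjusted p = 0.102 and 0.161), while their differences were -1.26 and -1.04. That library was the highest of its group for all 3 genes, at 240, 173 and 2572 CPM, on the side away from the fragments.

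**Figure D4:**
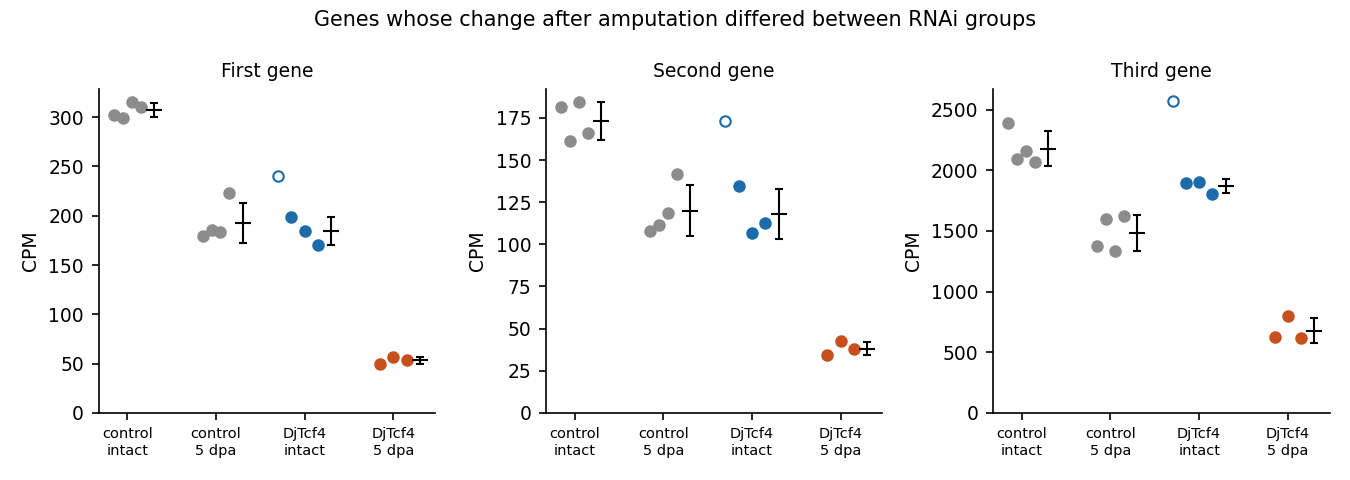
Level in CPM (vertical axes from 0) in each library of the 3 genes called in the interaction; black marks show the mean ± SD, and the open circle is DjTcf4 RNAi intact replicate 2, which is not in the mean. In all 3 panels the DjTcf4 RNAi fragments lie below every other library.

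How DjTcf4 RNAi intact replicate 2 stood was read gene by gene on a scale from the mean of the other intact libraries (0) to the mean of the fragments (1), over genes called with at least a 2-fold change and at least 5 CPM. Over 118 rising genes its median position was 0.497, and 17.8% of them lay above 0.75. Over 924 falling genes its median was 1.25, and 711 (76.9%) lay above 0.75, while 133 (14.4%) lay below 0.25. The library thus passed the fragment mean for most of these falling genes and stayed with the intact libraries for a smaller set that includes DJKW.4709. It lay midway for these rising genes. Over all genes that rose in control it lay among the fragments, as given below.

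The same reading was made for each of the 6 libraries, with the genes chosen anew without it. Intact replicates 1, 3 and 4 had median positions of 0.0351, -0.027 and 0.426 on rising genes and of 0.217, -0.261 and 0.104 on falling genes. Fragment replicates 1, 3 and 4 had medians of 0.886, 0.984 and 0.866 on rising genes and of 0.514, 1.09 and 1.28 on falling genes. Fragment replicate 1 thus lay about midway for the falling genes chosen without it, and with the other fragments for rising genes. Intact replicate 4 lay at 0.426 for rising genes, near the 0.497 of replicate 2.

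**Figure D5:**
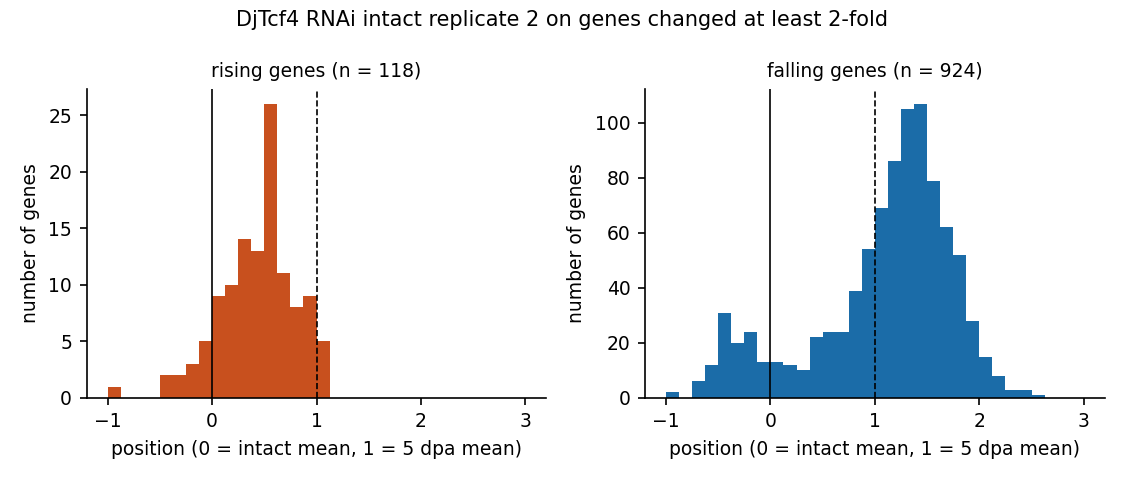
Number of genes (vertical axes) by the position of DjTcf4 RNAi intact replicate 2 between the mean of the other intact libraries (0, solid line) and the mean of the fragments (1, dashed line), for 118 rising and 924 falling genes; 1 rising gene below -1 is drawn at -1. Falling genes form a main group past 1 and a smaller one near and below 0.

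Falling genes were the more variable set in fragments. Among genes at 5 CPM or more, the median SD of the log2 level over the 3 DjTcf4 RNAi fragments was 0.303 for genes that fell in control and 0.127 for those that rose in control. In the 3 intact libraries the values were 0.183 and 0.152. Control fragments gave 0.252 and 0.141, and control intact animals 0.203 and 0.149, so the wider spread of falling genes was present in every group of the fit. The sets also differed in level. Over all genes tested, those that fell in control had a median of 13.1 CPM and those that rose 40.3 CPM. The part of level in the spread was not tested. Measured over the genes that fell in control, the median log2 difference from the intact DjTcf4 RNAi mean was -0.52, -0.94 and -0.96 in fragment replicates 1, 3 and 4. Over genes that rose in control it was 0.44, 0.55 and 0.56. DjTcf4 RNAi intact replicate 2 stood at -1.07 and 0.48 on these measures.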

How the data were processed

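Polyadenylated RNA was sequenced as paired-end Illumina libraries, per the labels' protocols. The authors deposited expected counts per gene, estimated counts of which 8.23% have a fractional part. Bowtie2, HISAT2, RSEM and DESeq2 are named in the submitters' processing notes without roles or versions, and the genome build, like the annotation, is not given in the sources used here. Counts were rounded to whole numbers. Genes were kept with filterByExpr (minimum count 10, minimum total 15), which left 16922 of 38792 rows (43.6%), and scaled with TMM. A quasi-likelihood model (edgeR 4.0.16, R 4.3.3; robust, 1 coefficient per group) was fitted to 14 libraries, and adjusted p under 0.05 over all genes tested was a call. Standard errors are approximate, taken from the F statistic and the size of the log2 fold change. Printed CPM values use TMM factors over all 15 libraries, so that replicate 2 is on the same scale. Positions and SDs use log2 CPM with 0.5 added. Genes named by ID are the pair of largest changes each way among genes called with and without replicate 2, at a mean of at least 5 CPM, with no overlap between stages. The members, lists and tests were chosen with earlier results of these data known. The steps were checked on simulated data. Alternatives were limma 3.58.1 (voom, quality weights), DESeq2 1.42.0, other scaling and filters, the replicate block, the compared groups alone, and leaving out each library. A filter of 5 CPM was added after the data were seen. Marker lists could not be tested without gene names.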

Additional observations from a re-analysis of the deposited data

Results flagged for a closer look

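In edgeR's interaction test 3 genes were called, with log2 differences between the changes under DjTcf4 RNAi and in control of -1.10, -1.08 and -0.89. The first kept its call in all 14 fits that lacked a library, the second lost it in 4 and the last in 9. The second and the last also lost it with DjTcf4 RNAi intact replicate 2 added back (edgeR adjusted p = 0.102 and 0.161).

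In groups of 4 libraries, 4 of 45 group values had 1 library far from the rest, where chance marks about 1 in 20. For the first interaction gene, the level in control 5 dpa replicate 4 was 223 CPM, while replicates 1, 2 and 3 had 180 to 185 CPM. For the last of the 3, DjTcf4 RNAi intact replicate 2 stood at 2572 CPM, against 1801 to 1906 CPM. Control 5 dpa replicate 2 had 19888 genes with a count. In control 5 dpa replicate 1, the genes that rose under DjTcf4 RNAi held 46.4% of the counts, against 43.8% to 44.0%.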

How the results depend on the processing

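Over 15 followed results and 26 alternatives, 330 values were counted as unchanged. A further 24 moved, 17 lost their call and 0 changed direction. Single genes had to keep their direction and their side of the threshold. Medians, correlations and slopes had to move by no more than the replicate spread. Counts of calls only had to stay within a fixed ratio of the main count, so 4373 against 6196 counted as unchanged. Of the 330, 15 come from a filter that tested nothing. The filter of 1 CPM in 3 libraries kept exactly the 16922 genes of the main filter (edgeR's limit came to 0.994 CPM), which is that filter; a filter of 5 CPM in 3 libraries, added after the data were seen, left 12301 genes and 5652 calls. For 5 dpa against intact under DjTcf4 RNAi (6196 calls), adding replicate 2 back gave 2305, the compared groups alone with it 575, and the fold threshold 1909; with any 1 library left out there were 4373 to 6496. In control (6965), the fold threshold gave 2139, and fits lacking a library 5755 to 7140. For the interaction (3), replicate 2 added back gave 1, no filter 6 (1 higher, 5 lower), DESeq2 14 (5 higher, 9 lower) and the fold threshold 2; fits lacking a library gave 1 to 3, with 1 without control intact replicate 2, DjTcf4 RNAi intact replicate 1, or DjTcf4 RNAi 5 dpa replicate 1 or 4. The last interaction gene lost its call without control intact replicates 2, 3 or 4, DjTcf4 RNAi intact replicates 1, 3 or 4, control 5 dpa replicate 4, or DjTcf4 RNAi 5 dpa replicates 1 or 4 (adjusted p from 0.0583 to 0.171). The median under DjTcf4 RNAi of genes called in control ranged over left-out libraries from 0.47 to 0.56 (rises) and from -1.06 to -0.77 (falls); the fold threshold gave 1.09 and -1.32, and the compared groups alone with replicate 2 gave 0.40 for rises. The correlation of the responses (0.831; Spearman 0.833) was 0.764 (0.770) with replicate 2 added back, 0.312 (0.444) with no filter and 0.915 (0.912) at 5 CPM, and 0.739 to 0.828 (0.789 to 0.830) with a library left out. The slope of the DjTcf4 RNAi response on the control response was 0.782. It was 0.319 with no filter and 0.662 to 0.880 with a library left out. The slope of the control response on the DjTcf4 RNAi response was 0.882, so neither slope alone shows which response was larger. Causes were not tested, except that a fold threshold admits fewer genes. Same-numbered intact and fragment libraries deviated in opposite directions (correlations -0.43, -0.431 and -0.161), while libraries of unlike number gave -0.106 to 0.401. With 3 libraries per group, so few correlations do not decide whether the numbers mark pairs. The replicate block gave 5793, 6755 and 2 calls for the 3 comparisons. DJKW.19945 lost its call in the compared groups alone with replicate 2 added back (adjusted p = 0.0691). The interaction has no value from the compared groups alone, and replicate 2 does not enter the control groups alone.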
